A study of Homo sapiens with 3 samples.

Results

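The galectins are a family of lectins that bind galactose-containing sugars, and 8 genes of the family and its binding partners were followed in the DNA microarray data from 3 Hodgkin's lymphoma (HL) cell lines, named HDLM-2, L-428, and L-540. They were chosen by name, as LGALS1, LGALS2, LGALS3, LGALS3BP, LGALS4, LGALS8, LGALS9, and LGALS12, and every transcript cluster annotated with one of these symbols, alone or among several, was taken. A transcript cluster summarizes the exon probes of a gene. Of the 8 genes, 7 had a cluster, out of 18033 genes named on the array, and LGALS9 has no cluster named here. The 7 genes were covered by 8 clusters out of 22011, since LGALS8 was annotated to 2. Each line was hybridized to 1 Affymetrix Human Exon 1.0ST array, and the values are RMA normalized signal intensities on the linear scale. The sample descriptions mention the histone deacetylase inhibitor vorinostat for HDLM-2 and L-428 but not for L-540, and the text of the study names no such treatment for these arrays, so the line and a possible treatment cannot be told apart. HDLM-2 and L-540 are HL lines of T cell origin and L-428 is of B cell origin, and each stands for a single tumor. With 1 array per line no replicate error can be given, no test was made, and all differences are descriptions of these 3 arrays.

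Galectins are made in the cytosol, leave the cell by a route that bypasses the classical secretory pathway, and crosslink glycoproteins on cell surfaces and in the matrix. Prototype galectins such as galectin-1 and galectin-2 carry a single sugar-binding domain and pair up, galectin-3 joins such a domain to a long flexible tail, and the tandem-repeat galectins, among them galectin-4, galectin-8, galectin-9, and galectin-12, hold a pair of domains on one chain. In classical HL, galectin-1 is known as a product of the tumor cells that dampens T cell responses.

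LGALS1, which encodes galectin-1, was the only member with signal intensities above 100, and it passed this threshold in all 3 lines. The study used 100 as its limit for expression of probe sets specific for endogenous retroviruses. Here it was carried over to transcript clusters of whole genes. The signal intensity of LGALS1 was 1142 in HDLM-2 cells, 285 in L-428, and 1046 in L-540. HDLM-2 and L-540 were thus close together, and L-428 was the low line. The signal in HDLM-2 was 4.005-fold that in L-428, a log2 difference of 2.002. A difference was counted between lines at 4-fold or more with the higher value above 100, so LGALS1 lay just inside this limit. Between L-428 and L-540 the log2 difference was -1.87, a 3.67-fold lower signal in L-428 that lay just outside it. HDLM-2 and L-540 differed by 1.09-fold. In HDLM-2 only 171 of the 22011 clusters had a higher signal than LGALS1, in L-428 891 did, and in L-540 202 did. This place in the list depends on the probes of a cluster and is no measure of expression relative to other genes.

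The direction of the LGALS1 difference was opposite to that of most clusters above 100 in at least 1 line. This filter favors L-428, where 2240 clusters were above 100, against 1382 in HDLM-2 and 1578 in L-540. Over the 2560 clusters above 100 in at least 1 line, the median log2 difference was -0.86 for HDLM-2 minus L-428 and 0.61 for L-428 minus L-540, so that most of them had their higher signal in L-428. These medians were -0.51 and 0.30 once all arrays were shifted to one median, and -0.17 and 0.14 with quantile normalization. Within this filtered set the direction held while the size depended on the scaling. A difference at least as far in the direction of LGALS1 was found for 102 of these clusters (3.98%) in HDLM-2 minus L-428 and for 126 (4.92%) in L-428 minus L-540. In HDLM-2 minus L-540 such a difference was found for 780 clusters (30.5%). All these shares refer to the filtered set with the values as deposited, and they were not counted after rescaling. Over all 22011 clusters the medians of HDLM-2 minus L-428 and of L-428 minus L-540 were 0.00 as deposited. They were 0.36 and -0.31 with one median and 0.20 and -0.19 with quantile normalization, in the direction of LGALS1. After the shift to one median the intensities of LGALS1 were 1255 in HDLM-2 cells, 244 in L-428, and 1111 in L-540, and with quantile normalization of the 3 arrays 1229, 220, and 1077 in the same order. L-428 was the low line in both cases, and the log2 difference of L-428 minus L-540 was then -2.18 and -2.29, past 4-fold.

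**Figure D1:**
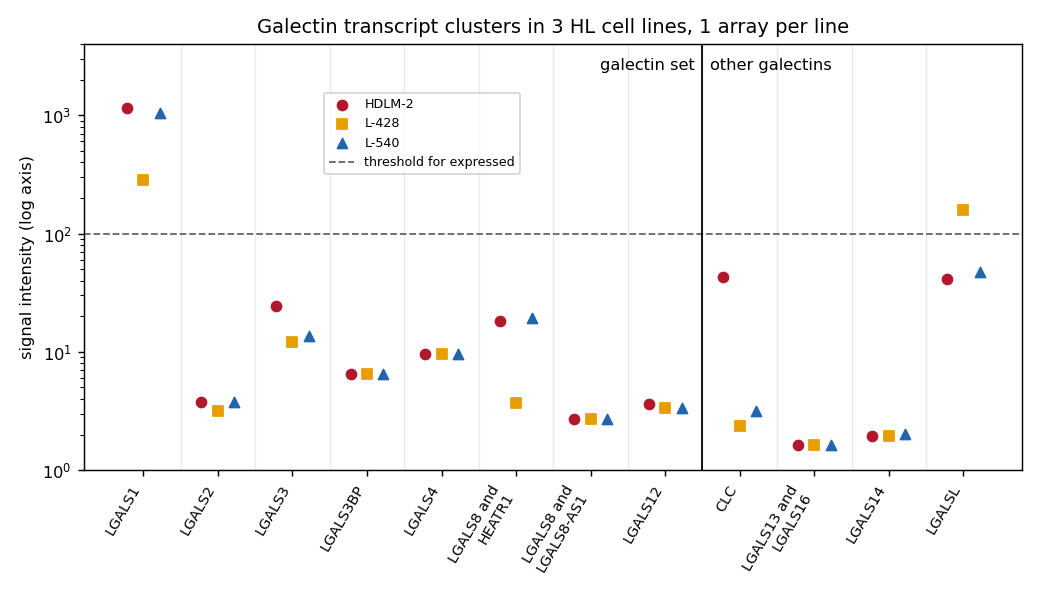
Signal intensity (log axis) of the galectin clusters, 1 point per array, with HDLM-2, L-428, and L-540 from left to right within each cluster and the threshold of 100 as a dashed line. LGALS1 lies above the threshold in all 3 lines, at 1142, 285, and 1046, while the other 7 clusters of the galectin set lie at 24.4 or less.

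LGALS3 encodes galectin-3, which is abundant in macrophages and acts both outside the cell and in the cytosol and nucleus. Its signal intensity was 24.4 in HDLM-2 cells, 12.0 in L-428, and 13.6 in L-540, below the threshold in each line. HDLM-2 was the high line, 2.03-fold above L-428, and L-428 and L-540 lay close together. The log2 difference of HDLM-2 minus L-428 was 1.02 as deposited, 1.54 with quantile normalization, and 0.26 with an offset of 50 added to the signals. LGALS3BP encodes a secreted glycoprotein that galectins bind and is not itself a galectin. It had the identical value of 6.49 in HDLM-2, L-428, and L-540. Such ties are frequent in these values, as 6943 of all 22011 clusters (31.5%) had an identical value in the 3 lines, and 3 of the 8 galectin clusters did. A tie is therefore not read as equal expression.

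To show the sequence at the start of galectin genes, the RefSeq promoter windows of LGALS3 and LGALS2 are printed as examples. That of LGALSL, a galectin-related gene outside the set that is described further on, is printed with them. LGALS3 and LGALS2 were below 100 in each line, and no window of LGALS1 was matched. Each window spans 250 bases before to 50 bases after the annotated start in GRCh38.p14, 5′ to 3′ on the strand of the gene. Capitals mark GC boxes, searched as GGGCGG on both strands. LGALS3 lies at chr14:55129002-55129301 (plus strand), LGALS2 at chr22:37580038-37580337 (minus strand), and LGALSL at chr2:64453912-64454211 (plus strand).
LGALS3: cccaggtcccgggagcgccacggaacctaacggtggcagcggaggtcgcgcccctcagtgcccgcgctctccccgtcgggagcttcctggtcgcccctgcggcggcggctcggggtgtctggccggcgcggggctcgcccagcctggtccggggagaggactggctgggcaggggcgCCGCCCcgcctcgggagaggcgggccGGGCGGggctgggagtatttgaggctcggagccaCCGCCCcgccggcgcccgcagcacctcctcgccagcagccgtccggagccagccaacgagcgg
LGALS2: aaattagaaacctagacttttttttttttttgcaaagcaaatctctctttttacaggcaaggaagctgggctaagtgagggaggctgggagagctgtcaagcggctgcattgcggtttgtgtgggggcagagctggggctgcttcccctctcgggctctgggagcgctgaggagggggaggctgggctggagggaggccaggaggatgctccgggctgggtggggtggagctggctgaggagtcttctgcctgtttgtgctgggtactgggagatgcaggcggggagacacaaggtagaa
LGALSL: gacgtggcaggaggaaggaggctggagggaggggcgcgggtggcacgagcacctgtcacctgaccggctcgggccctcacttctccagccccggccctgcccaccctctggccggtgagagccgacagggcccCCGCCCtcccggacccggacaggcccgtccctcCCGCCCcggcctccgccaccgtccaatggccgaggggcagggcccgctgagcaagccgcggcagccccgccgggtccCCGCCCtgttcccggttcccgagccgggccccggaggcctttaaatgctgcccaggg

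The windows of LGALS3 and LGALSL were rich in G and C, with 78.3% and 76.3%, and each held 3 GC boxes. The window of LGALS2 held 57.7% G and C, near the median of 58.7% over all 35116 promoter windows, and no GC box. RefSeq windows were matched for 6 of the 8 genes, in 8 windows, of which 2 held a GC box, against 45.0% of all windows. Of these 2, 1 was the LGALS3 window and 1 was a window of LGALS8. The letters TATAAA of a TATA box, searched on both strands, were in 1 of the 8 windows, another one of LGALS8, and in 11.5% of all windows. LGALS1 and LGALS12 had no matched window, while LGALS9, which has no cluster, is among the 6. The letters TGANTCA of an AP-1 motif and TTCNNNGAA of a STAT motif, each searched on both strands, were in none of the 8 windows and in 7.71% and 7.66% of all windows. These matches describe the letters only and are no evidence for or against binding of a factor. A link between the motifs and the signals was not tested.

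Among the tandem-repeat galectins, LGALS8 had 2 clusters, and neither measures it alone. Galectin-8 recognizes sugars exposed on damaged vesicles inside the cell. The cluster shared with LGALS8-AS1, an antisense RNA gene, had the value 2.72 in all 3 lines. The cluster shared with the neighboring gene HEATR1, which encodes a factor of ribosome production, had 18.3 in HDLM-2 cells, 3.71 in L-428, and 19.4 in L-540. L-428 was the low line, 4.95-fold below HDLM-2 and 5.25-fold below L-540, but all values were below 100, so the difference was not counted. How much of this signal came from LGALS8 and how much from HEATR1 cannot be told. The 2 clusters annotated to HEATR1 alone ran the other way. The first had 19.0 in HDLM-2 cells, 139 in L-428, and 39.3 in L-540, and the second had 29.9, 87.0, and 35.2 in the same order, so L-428 was the high line in both.

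LGALS4, which encodes a galectin of the intestinal epithelium, had the identical value of 9.62 in HDLM-2, L-428, and L-540. LGALS12, known from fat cells, had 3.64 in HDLM-2 and 3.34 in both L-428 and L-540. LGALS2, a prototype galectin best known from the gut, had 3.78 in HDLM-2 cells, 3.14 in L-428, and 3.78 in L-540. All values of LGALS2 and LGALS12 lay below the median of all clusters, which was 7.16 in HDLM-2 cells, 9.18 in L-428, and 7.41 in L-540, and no order of the lines is read from them. Galectin-9, a ligand of TIM-3, a receptor on T cells, is not analysed here.

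Counted over the set, 1 of the 8 clusters was above 100 in HDLM-2, where 6.28% of all clusters were, 1 of 8 in L-428, where 10.2% were, and 1 of 8 in L-540, where 7.17% were. In each line this cluster was LGALS1, and shares of 1 in 8 are near the background. At 4-fold, 1 of 8 was higher in HDLM-2 than in L-428, against 0.427% of all clusters, and 0 of 8 were lower, against 2.93%. Between HDLM-2 and L-540, 0 of 8 were higher and 0 were lower, against 0.273% and 0.586% of all clusters. Between L-428 and L-540, 0 of 8 were higher and 0 were lower, against 2.04% and 0.472%. Counts of 0 among 8 are what shares of this size give and are no result about galectins. The balance of the calls over all clusters depended on the scaling. Of the clusters called between HDLM-2 and L-428, 12.7% were higher in HDLM-2 as deposited, 25.3% with one median, and 41.8% with quantile normalization, and of those called between L-428 and L-540, 81.2%, 66.6%, and 56.1% were higher in L-428. For HDLM-2 and L-540 the shares higher in HDLM-2 were 31.7%, 35.9%, and 43.3%. Without regard to size, 5 clusters had a higher signal in HDLM-2 than in L-428, 0 a lower one, and 3 were tied. For HDLM-2 against L-540 3 were higher, 1 was lower, and 4 were tied. For L-428 against L-540 0 were higher, 4 were lower, and 4 were tied. The same counts were not made over all clusters, so no pattern is read from them. They include LGALS2, LGALS12, and the cluster shared by LGALS8 and HEATR1. The median log2 difference over the 8 clusters was 0.20 for HDLM-2 minus L-428, 0.00 between HDLM-2 and L-540, and -0.09 for L-428 minus L-540, while the median over all clusters was 0.00 in each pair.

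**Figure D2:**
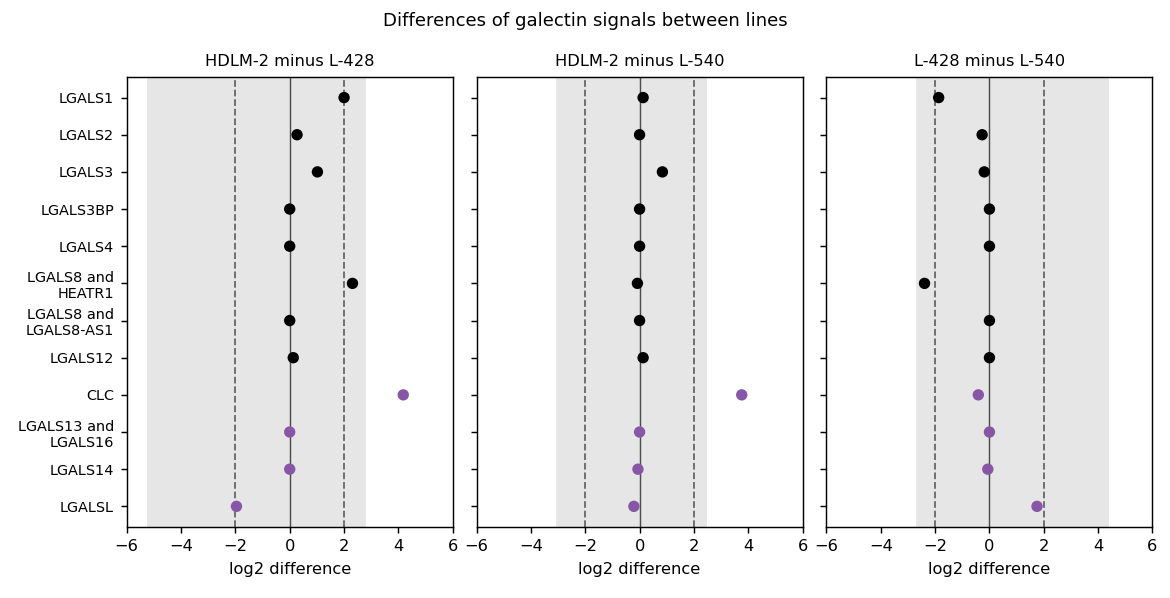
Log2 difference of each galectin cluster for HDLM-2 minus L-428, HDLM-2 minus L-540, and L-428 minus L-540, with the galectin set in black and other galectins in purple. Dashed lines mark 4-fold, and gray marks the range that holds 95% of the 2560 clusters above 100 in at least 1 line (-5.20 to 2.76, -3.04 to 2.46, and -2.65 to 4.37). LGALS1 lies at 2.002, 0.13, and -1.87, and LGALSL lies on the other side of 0 in the comparisons with L-428. Both genes lie within the gray range.

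Of 10 further galectin genes, 5 had a cluster, covered by 4 clusters. LGALSL encodes a galectin-related protein that lacks the usual affinity for lactose. It had a signal intensity of 41.0 in HDLM-2 cells, 159 in L-428, and 47.3 in L-540. L-428 was the high line and the only one above 100, which is the reverse of the order seen for LGALS1. Most clusters above 100 in at least 1 line also had their higher signal in L-428. Their median log2 difference was -0.86 for HDLM-2 minus L-428 as deposited, so the direction of LGALSL is the common one. The signal in HDLM-2 was 3.88-fold below that in L-428, just under the limit of 4-fold, and with quantile normalization the log2 difference of -1.96 was -1.14. CLC encodes galectin-10, the protein of Charcot-Leyden crystals in eosinophils and basophils. It had 43.0 in HDLM-2 cells, 2.38 in L-428, and 3.17 in L-540. HDLM-2 was the high line, 18.1-fold above L-428, but the value stayed below 100. The other markers of eosinophils and basophils that had a cluster were at 7.54 or less in HDLM-2, with EPX at 6.06, PRG2 at 7.54, and SIGLEC8 at 2.14. The placental galectins were near the lowest signals, with 1.62 in all 3 lines for the cluster shared by LGALS13, LGALS16, and a further locus, and 1.95, 1.95, and 2.04 in HDLM-2, L-428, and L-540 for LGALS14. LGALS7, LGALS7B, LGALS9B, LGALS9C, and GRIFIN have no cluster named here.

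The genes whose signals across the 3 arrays were most like LGALS1 were STING1, VWA1, and PKIG. Likeness was the largest difference between the log2 values of both genes after each was centered on its mean, over 1130 other clusters paired with 1 gene and above 100 in at least 1 line. STING1, which encodes an adaptor of the cytosolic DNA sensing pathway, had 230 in HDLM-2 cells, 53.2 in L-428, and 202 in L-540, with a largest difference of 0.055. VWA1, which encodes a matrix protein, had 248, 65.5, and 251 in the same order, with 0.076. PKIG, which encodes an inhibitor of protein kinase A, had 123, 33.3, and 126, with 0.097. In all, 33 of the 1130 clusters (2.92%) lay within 0.5 of LGALS1. With 3 arrays such a likeness says only that L-428 was low and the other lines were close together.

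LGALS1 and LGALS2 are neighbors on chromosome 22, with 3 protein-coding genes between them in GRCh38.p14. Of the 10 protein-coding genes on each side of LGALS1, a window chosen after the values of LGALS1 were seen, 14 had a cluster of their own. Among these 14, 6 had their lowest signal in L-428, 4 were tied in all lines, and 0 differed 4-fold in any pair. Of all clusters, 4.32% were counted as different in some pair, so 0 of 14 is no result. The share of all clusters lowest in L-428 was not counted, so 6 of 14 is not read as a trait of the region. RAC2, which encodes a small GTPase of blood cells, had 498 in HDLM-2 cells, 306 in L-428, and 642 in L-540. EIF3L, which encodes a subunit of a translation initiation factor, had 409 in HDLM-2 cells, 309 in L-428, and 409 in L-540. Both were above 100 in each line and lowest in L-428, with smaller differences than LGALS1. NOL12, the next gene with a cluster on one side of LGALS1, was highest in L-428, with 39.5 in HDLM-2 cells, 55.1 in L-428, and 39.5 in L-540.

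**Figure D3:**
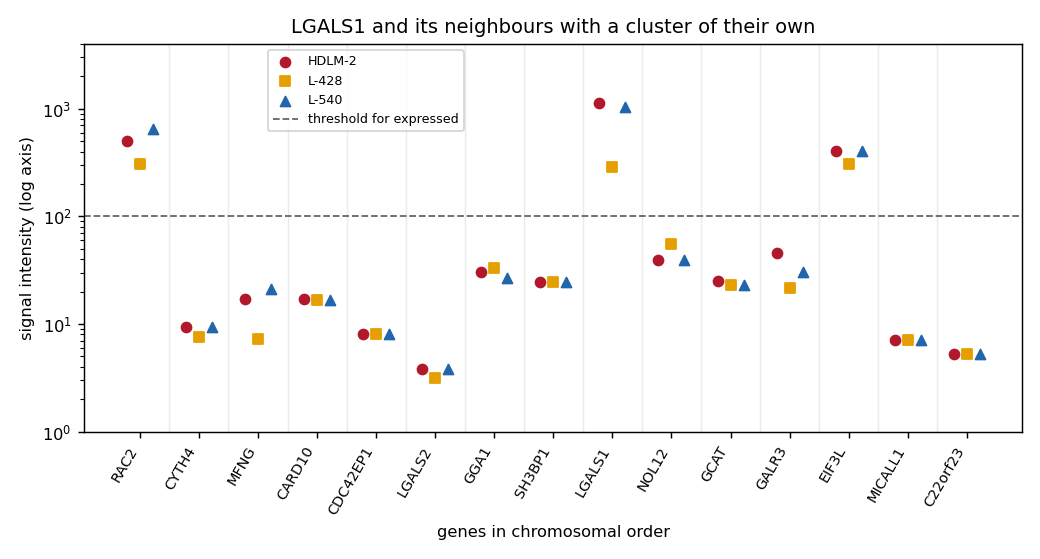
Signal intensity (log axis) of LGALS1 and of the 14 neighboring genes with a cluster of their own, in chromosomal order and not to scale, with HDLM-2, L-428, and L-540 from left to right for each gene. RAC2, LGALS1, and EIF3L are above 100 in all lines, and LGALS1 has the widest distance between L-428 and the other lines among these 3.

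What a galectin does depends on the glycoproteins it meets and on the enzymes that build or cap their sugars, so 6 lists of such partner genes were examined, with 1 cluster per gene. Of 70 genes listed, 67 had a cluster, 5 were above 100 in at least 1 line, and 1 was counted as different between lines. Of all clusters, 11.6% were above 100 in at least 1 line and 4.32% were counted as different in some pair, so neither count stands above the background. The rule for named genes picked TNFRSF9, SLC2A1, TFRC, and SQSTM1, and the other partner genes were named for their roles or after their values were seen. The gene counted as different was TNFRSF9, which encodes 4-1BB, a costimulatory receptor that galectin-9 binds in mice. It had 318 in HDLM-2 cells, 34.7 in L-428, and 15.3 in L-540, and HDLM-2 stood far above both other lines. Among the 11 measured receptors and counter-receptors, CD44, a receptor for hyaluronan and a partner of several galectins, had 95.4 in HDLM-2 cells, 13.6 in L-428, and 5.40 in L-540. Its highest value lay just under the threshold, so it was not counted, and when the arrays were shifted to one median or quantile normalized it was. PTPRC, which encodes the leukocyte antigen CD45, had 2.14 in HDLM-2 cells, 2.53 in L-428, and 34.6 in L-540. HAVCR2, which encodes TIM-3, had 12.3, 4.17, and 10.3 in the same order. The median log2 difference of this list was 0.07 for HDLM-2 minus L-428 and 0.00 for both comparisons with L-540.

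Among the 18 ligands of the cell surface and matrix, 3 were above 100 in all lines and 0 were counted as different. BSG, which encodes basigin, had 169 in HDLM-2 cells, 128 in L-428, and 197 in L-540. TFRC, which encodes the transferrin receptor, had 334 in HDLM-2 cells, 211 in L-428, and 223 in L-540. SLC2A1, which encodes the glucose transporter GLUT1, had 165 in HDLM-2 cells, 146 in L-428, and 496 in L-540, and L-540 was the high line. LAMP1, a lysosomal membrane protein with many galectin-binding sugars, had 54.9, 52.1, and 54.9 in HDLM-2, L-428, and L-540, with HDLM-2 and L-540 tied. ALCAM, an adhesion molecule, had 63.1 in HDLM-2 cells, 78.4 in L-428, and 4.18 in L-540, and ITGA4, an integrin subunit gene whose cluster is shared with CERKL, had 4.57, 47.4, and 64.1 in the same order.

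Of the enzymes of sugar synthesis, none of the 13 N-glycan enzymes, 8 O-glycan enzymes, and 9 sialyltransferases was above 100 in any line, where 11.6% of all clusters were above 100 in at least 1. Counts of 0 in lists of this size are not read as a result about the enzymes. MGAT5, which makes the branch of N-glycans that carries galectin-binding repeats, had 19.0 in HDLM-2 cells, 8.44 in L-428, and 3.81 in L-540. C1GALT1, which makes the core of common O-glycans, had 9.58 in HDLM-2 cells, 45.5 in L-428, and 21.4 in L-540. ST6GAL1, whose sialic acid cap blocks binding of galectin-1, had 17.2, 30.9, and 35.5 in the same order. Among the 8 measured partners of the response to damaged vesicles, SQSTM1, an autophagy receptor gene whose cluster is shared with MRNIP, had 194 in HDLM-2 cells, 54.0 in L-428, and 134 in L-540, with L-428 as the low line. CALCOCO2, the autophagy receptor that galectin-8 recruits, had 28.6 in HDLM-2 cells, 40.8 in L-428, and 35.0 in L-540.

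**Figure D4:**
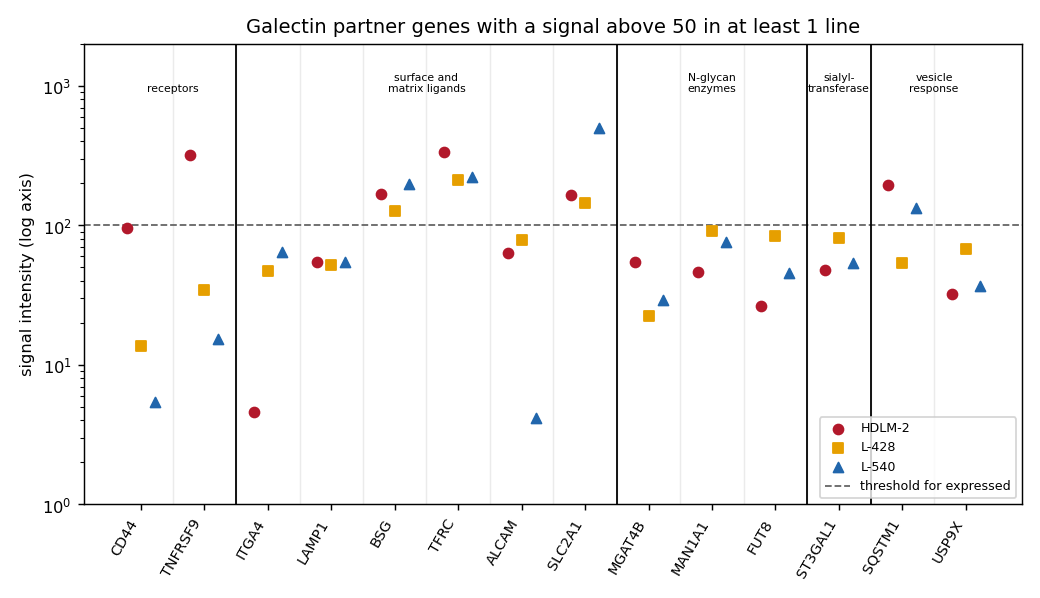
Signal intensity (log axis) of the 14 galectin partner genes above 50 in at least 1 line, by list, with HDLM-2, L-428, and L-540 from left to right for each gene and the threshold of 100 as a dashed line. BSG, TFRC, and SLC2A1 are above 100 in all lines, SQSTM1 in HDLM-2 and L-540, and TNFRSF9 in HDLM-2 at 318.

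The signals of all clusters spanned 0.677 to 13700 in HDLM-2, 0.677 to 5776 in L-428, and 0.677 to 13263 in L-540. Among 10 markers of HL cells, 7 were above 100 in at least 1 line. The HL marker TNFRSF8, which encodes CD30, had 158 in HDLM-2 cells, 145 in L-428, and 158 in L-540, and the transcription factor IRF4 had 598 in all 3. The others were TRAF1, CCL17, CCL22, BATF3, and GATA3. In HDLM-2, L-428, and L-540, CCL22 had 535, 10.6, and 12.2, and CCL17 had 233, 79.3, and 20.9. In the same order TRAF1 had 31.5, 116, and 18.6, GATA3 had 51.0, 134, and 22.7, and BATF3 had 183, 160, and 92.3. FUT4, CD40, and CD70 were below 100 in each line. Of the 10 markers, 2 were above 100 in all lines. Counted as different in some pair were 4, against 4.32% of all clusters. The summed signal of the measured markers of B cells lay between 40.1 and 52.4 in the lines, that of T and NK cells between 47.6 and 52.6, that of myeloid cells between 39.8 and 53.9, and that of stromal cells was 32.4. No member of these lists was above 100. Of the 7 myeloid markers, 4 were tied in all lines. CD14 had 10.2 in HDLM-2 cells, 4.96 in L-428, and 9.18 in L-540. CD68 had 17.5, 36.1, and 17.6 in HDLM-2, L-428, and L-540, and LYZ had 1.36, 1.31, and 1.36. These values were far below 100, and no order of the lines is read from them. All 5 stromal markers were tied in all lines. Macrophages and fibroblasts are known to express LGALS1 as well. The samples were cultured HL cell lines, and which cells gave the LGALS1 signal was not tested.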

How the data were processed

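Total RNA of 3 HL cell lines was measured on exon arrays (Affymetrix Human Exon 1.0ST), 1 array per line. The deposited values are signal intensities per transcript cluster on the linear scale, which the authors computed with the RMA algorithm in Affymetrix Expression Console. The submitters' processing notes name the genome build hg18. As the methods of the study describe it, RMA was run once for these arrays together with downloaded arrays of blood cells, B cells, and P493-6 cells, so the values may depend on those arrays, which were not used here. The annotation gives 1 gene for 14432 of 22011 clusters, several genes for 2408, and no gene for 5171. Symbols were updated through Entrez identifiers in the RefSeq table of GRCh38.p14, whose coordinates were used for the promoter windows and the order of genes around LGALS1. For partner and marker lists, the cluster of a single gene with the highest mean was used, or a shared one where there was no other. Clusters above 100 were called expressed, a limit that the study applied to probe sets of endogenous retroviruses. Differences were called at 4-fold with the higher value above 100. The counting of calls was checked on simulated data. Members and lists were chosen with earlier results of these data known. Named were all galectins with a cluster, partner genes above 100 in at least 1 line that differed 4-fold or had the highest means of their list, the 3 genes most like LGALS1, and markers above 100. Genes named outside this rule are given as such or serve as background values. Alternatives were thresholds of 50 and 200, 2-fold and 8-fold, no filter, an offset of 50, a common median of the arrays, quantile normalization, and clusters paired with 1 gene. Calculations were made with pandas 2.3.3 and numpy 2.4.6 under Python 3.11.15, and plots with matplotlib 3.10.9. The number of arrays limits the precision, and no p-value was computed.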

Additional observations from a re-analysis of the deposited data

How the results depend on the processing

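The number of galectin clusters above 100 was 1 in each line under each alternative tried. The count of 1 galectin cluster higher in HDLM-2 than in L-428 was 0 at 8-fold and 0 with an offset of 50, where the LGALS1 difference was 1.83 on the log2 scale, and 2 with no filter on the value, which adds the cluster shared by LGALS8 and HEATR1. The count of 0 clusters lower in L-428 than in L-540 was 1 at 2-fold, 1 after a shift to one median, and 1 after quantile normalization, through LGALS1, and 1 with no filter, through the shared LGALS8 cluster. Over clusters above 100 in at least 1 line, which is LGALS1 alone, the median log2 difference was 2.002 for HDLM-2 minus L-428 and -1.875 for L-428 minus L-540. The called galectin difference, LGALS1 higher in HDLM-2 than in L-428, kept its direction. An offset cannot reverse a direction, and the median shift was small beside this difference, so nothing is concluded from that. The median over all clusters was 0.00 for HDLM-2 minus L-428 as deposited, 0.36 with one median, and 0.20 with quantile normalization, and for L-428 minus L-540 it was 0.00, -0.31, and -0.19. Of the partner genes, 5 were above 100 in at least 1 line, 14 above 50, and 3 above 200. Alternatives for the partner genes were chosen after seeing the data. The number of partner genes that differed 4-fold was 1 as reported, and 4 with a threshold of 50, with one median, and with quantile normalization. Both scalings added CD44, SLC2A1, and SQSTM1, and the threshold of 50 added CD44, ITGA4, and ALCAM. Most galectin signals lie far below 100, where an offset of 50 leaves little of a difference, as for CLC, with a log2 difference of 4.18 and 0.83 for HDLM-2 minus L-428. No paired analysis was possible because there was a single array of each line.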

Other observations

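Among markers of intestinal epithelial cells, listed because LGALS4 is a galectin of that tissue, KRT8 alone was above 100. KRT8, which encodes a keratin of simple epithelia, had a signal intensity of 419 in HDLM-2 cells, 295 in L-428, and 615 in L-540, while EPCAM, KRT20, CDH17, and VIL1 were at 2.90 or less in each line. Values of other filament genes were looked up after this was seen. KRT18, the usual partner of KRT8, had 5.97 in HDLM-2 cells, 3.93 in L-428, and 9.49 in L-540. VIM, which encodes the vimentin of blood and connective tissue cells, had 1292 in HDLM-2 cells, 565 in L-428, and 1017 in L-540. KRT8 has many near-identical processed copies in the genome, and their part in the signal was not tested.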
